A study of Mus musculus with 4 samples.

Results

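Chromatin accessibility was examined at 9 genes used to recognise hematopoietic stem cells, namely Procr, Slamf1, Kit, Ly6a, Tek, Esam, Fgd5, Ctnnal1 and Robo4. Their peaks were taken from a single-cell ATAC-seq table by position, as all peaks overlapping the GRCm38 gene body or the 5000 bp upstream of it. This gave 32 of the 93513 peaks of the table, of which 8 were promoter peaks, within 1000 bp of a protein-coding start of the gene, and 24 were other peaks. Over the whole genome 16802 peaks were promoter peaks and 76711 were not. Peaks were found at 8 of the 9 genes, each of these with 1 promoter peak, and none was found at Ly6a.

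The series comprised 4 samples of long-term hematopoietic stem cells (LT-HSCs), the cells that sustain blood formation for life, from female C57BL/6JRj mice. Of its 4 groups, CLCA3A1high and CLCA3A1low LT-HSCs came from mice of 22 to 28 months and were separated with an antibody to the surface protein CLCA3A1. The other groups were LT-HSCs of young mice (3 to 4 months) and of old mice (22 to 28 months). Each group had 1 sample, made of 10000 sorted cells with 2500 from each of 4 mice, so that no animal can be told from another. The titles of the young and old samples read rep 2, but no group has a further replicate among the 4 samples. All cells came from the marrow fraction that was lineage negative and positive for KIT and Sca-1, and that lacked CD34 and CD135. The table used here is the one that both CLCA3A1-sorted samples cite in their labels, and its barcodes carry 1 of 2 suffixes that no label ties to a sample. The suffixes are called set 1 and set 2. A ratio between them describes these sets of cells and has no group direction, and no p-value is given.

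Set 1 held 818 cells with 13050952 counts and set 2 held 636 cells with 9820094 counts. The median cell had 13358.5 counts in set 1 and 12755 in set 2, and no barcode sequence was shared between the sets. A count is 1 cut by the Tn5 transposase, which inserts into open DNA. Levels are given as CPM, counts per 1000000 counts of the set, with exact Poisson intervals. Because a fragment usually brings a pair of cuts, 88.7% of the nonzero entries were even, and all 95% intervals below cover counting error only and are too narrow. A cell was called open at a peak if it held at least 1 count there, and shares of open cells were taken after each cell was thinned to 4899 counts, which left 749 and 560 cells.

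These genes encode proteins of several kinds. Receptors on the stem cell surface receive signals from the marrow, such as KIT for stem cell factor and TIE2, the product of Tek, for angiopoietin. Procr encodes the endothelial protein C receptor (EPCR), Slamf1 encodes CD150 and Ly6a encodes Sca-1, and antibodies to all of them are widely used to isolate these cells. Esam and Robo4 are genes of adhesion and guidance molecules shared with endothelium. Fgd5, a guanine nucleotide exchange factor, and Ctnnal1, which encodes alpha-catulin, lie inside the cell and are known for reporter alleles that light up stem cells. Enhancers, often in introns, and promoters both appear as accessible peaks, and a peak does not measure expression.

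Summed over all peaks of a gene, Slamf1 and Procr differed most between the sets. The Slamf1 locus had 64.8 CPM in set 1 and 35.2 in set 2, which is 0.88 as the log2 of the first over the second (95% interval 0.70 to 1.06). At Procr the levels were 11.9 and 6.93 CPM, with a log2 ratio of 0.78 (0.36 to 1.21). At Esam they were 104.3 and 71.4 CPM (0.55, 0.41 to 0.68), at Tek 17.4 and 12.0 CPM (0.53, 0.21 to 0.87) and at Kit 108.6 and 90.3 CPM (0.27, 0.14 to 0.39). The intervals of those 5 loci excluded 0. When a cell added at most 1 count to a peak, so that paired cuts no longer counted separately, the interval at Procr included 0 (0.62, -0.0041 to 1.26), and those of Slamf1 (0.60 to 1.18), Esam (0.063 to 0.55), Tek (0.15 to 1.15) and Kit (0.061 to 0.46) did not. The Fgd5 locus was lower in set 1, at 51.0 against 64.0 CPM (-0.33, -0.49 to -0.17, and -0.49 to -0.020 once per cell). In thinned cells the intervals of Tek (0.38, -0.22 to 0.99) and Fgd5 (-0.27, -0.58 to 0.042) included 0. Ctnnal1, at 77.8 and 70.0 CPM (0.15, 0.012 to 0.29), and Robo4, at 28.9 and 33.6 CPM (-0.22, -0.44 to -0.00068), lay at the edge of counting error, and once per cell their intervals included 0.

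**Figure D1:**
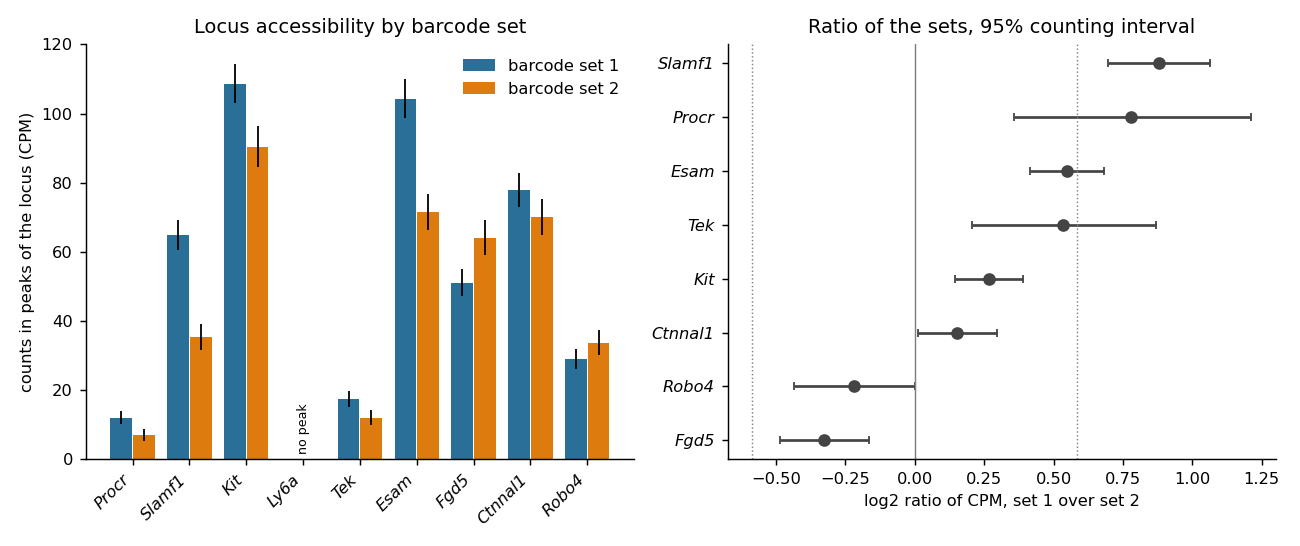
The left panel plots the summed CPM of each marker locus in barcode set 1 (blue) and barcode set 2 (orange) with 95% Poisson intervals, and Ly6a has no peak. The right panel plots the log2 ratio of set 1 over set 2 with its 95% counting interval, with dotted lines at 1.5-fold either way, and shows Slamf1 (0.88) and Procr (0.78) beyond the right line and Fgd5 (-0.33) lowest.

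A ratio of at least 1.5-fold, computed with 1 CPM added to each level for features with at least 20 counts, was used to call a difference between the sets. By this measure 2 of the 8 marker loci with a peak were higher in set 1, against 4.62% of 16988 protein-coding loci, and 0 were higher in set 2, against 3.6%. On this scale the median log2 ratio was 0.38 over the 8 marker loci and 0.0036 over all these loci. For promoter peaks, 1 of 8 (Procr) was higher in set 1, against 6.17% of 16132 promoter peaks, and 0 were higher in set 2, against 5.11%. Of the 24 other peaks 20 had enough counts, 5 of which were higher in set 1 and 1 in set 2, against 17.0% and 17.9% of 63493 peaks. With at least 100 counts, 4 of 14 were higher in set 1 and 1 in set 2, against 15.5% and 14.7% of 30014 peaks. These counts are small, and nothing is read from them about the genes as a list. The description below rests on the individual peaks.

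Promoters and other peaks are kept apart in what follows. The 8 promoter peaks together held 68.9% of the counts of the marker genes, with 318.8 CPM in set 1 and 265.7 in set 2 (log2 ratio 0.26, 0.19 to 0.33). The 24 other peaks together had 145.8 and 117.7 CPM (0.31, 0.20 to 0.42). On the scale with 1 CPM added, the median log2 ratio was 0.20 over the 8 promoter peaks, against 0.0088 over all promoter peaks, and -0.0022 over the 20 other peaks, against 0.028. The other peaks ranged from -0.84 to 1.97 and the promoter peaks from -0.16 to 0.70.

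Since peaks differ in width, promoter levels were compared between genes as CPM per kb of peak within each set. In set 1 the order from the highest was Ctnnal1 (25.5), Kit (23.7), Esam (19.7), Procr (11.9), Robo4 (11.3), Fgd5 (9.39), Tek (8.49) and Slamf1 (6.90). In set 2 it was Ctnnal1 (22.9), Kit (20.8), Esam (13.5), Robo4 (12.7), Fgd5 (9.73), Tek (7.19), Procr (6.91) and Slamf1 (5.67), so that Procr changed its place while Ctnnal1, Kit and Esam led and Slamf1 was last in both sets. The median over all 16132 promoter peaks, taken over both sets, was 14.8 CPM per kb, and on that pooled scale the Slamf1 promoter lay at the 15.4th percentile. Most neighbours in these orders had overlapping intervals. In set 1 the exceptions were Kit (22.2 to 25.3) and Esam (18.7 to 20.8), and Esam and Procr (10.1 to 13.9). In set 2 the exception was Kit (19.2 to 22.6) and Esam (12.5 to 14.5), whereas Esam and Robo4 (11.2 to 14.4) overlapped.

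Slamf1, the gene of the receptor CD150, had 6 peaks at ENSMUSG00000015316.11 (chr1:171767127-171801184, plus strand). Its promoter peak (chr1:171766885-171767639) was weak, with 68 counts in set 1 and 42 in set 2, or 5.21 and 4.28 CPM, and the interval of its log2 ratio included 0 (0.28, -0.29 to 0.88). It carried only 8.05% of the counts of the locus in set 1 and 12.1% in set 2. The widest of its other peaks (chr1:171761114-171763247), centred upstream of the start at 4947 bp, had 373 and 201 counts, or 28.6 and 20.5 CPM (0.48, 0.23 to 0.74). That peak lies only in part within the 5000 bp window, and leaving it out with a window of 2000 bp moved the log2 ratio of the locus to 1.29.

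The difference at Slamf1 was largest at a peak in an intron, centred 6163 bp into the gene (chr1:171772535-171774045). It had 315 counts in set 1 and 53 in set 2, or 24.1 (21.5 to 27.0) and 5.40 (4.04 to 7.06) CPM. The log2 ratio was 2.16 (1.74 to 2.61), a 4.47-fold difference. With 1 CPM added, as for all percentiles given here, it lay at the 99.6th percentile of the peaks outside promoters. Its interval did not overlap that of the Slamf1 promoter. At equal depth 7.48% (5.70 to 9.60) of cells were open at this peak in set 1 and 1.79% (0.860 to 3.26) in set 2, and without thinning the shares were 15.5% and 2.83%. Open cells held 2.48 counts each in set 1 and 2.94 in set 2, so the set with more counts had more open cells and not more counts per open cell. A further intron peak (chr1:171788532-171789111), at 21694 bp, had 72 and 32 counts, or 5.52 and 3.26 CPM (0.76, 0.14 to 1.41), with 1.74% and 1.61% of thinned cells open. Counted once per cell, its interval included 0 (0.78, -0.099 to 1.73), and that of the peak at 6163 bp did not (1.67 to 3.19). The remaining intron peaks had 15 and 18 counts (at 18959 bp) and 2 and 0 counts (at 4808 bp).

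The central 300 bases of both intron peaks that passed 1.5-fold are shown, the one at 21694 bp with the limit given above. They are GRCm38 plus-strand sequence, 5′ to 3′, from chr1:171773140-171773439 and chr1:171788672-171788971. Capitals mark the word AGATAA, the core of the site that GATA factors bind.
Slamf1 peak at 6163 bp: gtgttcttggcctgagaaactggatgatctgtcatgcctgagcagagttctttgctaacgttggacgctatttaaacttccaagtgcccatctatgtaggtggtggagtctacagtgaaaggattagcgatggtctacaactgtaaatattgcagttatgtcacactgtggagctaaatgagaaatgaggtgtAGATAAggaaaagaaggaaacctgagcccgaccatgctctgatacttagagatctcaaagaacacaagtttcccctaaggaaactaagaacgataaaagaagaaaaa
Slamf1 peak at 21694 bp: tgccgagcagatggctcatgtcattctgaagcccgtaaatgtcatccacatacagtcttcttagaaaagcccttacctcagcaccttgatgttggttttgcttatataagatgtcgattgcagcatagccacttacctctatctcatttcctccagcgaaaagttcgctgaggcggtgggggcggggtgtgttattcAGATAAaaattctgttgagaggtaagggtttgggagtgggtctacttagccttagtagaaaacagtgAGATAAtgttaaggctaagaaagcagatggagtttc
The word stands at base 194 of the first and at bases 198 and 265 of the second. It was found, on either strand, in the central 300 bases of 14.5% of all other peaks.

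Kit, the gene of the stem cell factor receptor that was itself used to sort these cells, had 8 peaks at ENSMUSG00000005672.12 (chr5:75574916-75656722, plus strand). The promoter peak (chr5:75574282-75577176) had 895 and 592 counts, or 68.6 and 60.3 CPM, with a log2 ratio of 0.19 (0.035 to 0.34). Counted once per cell, the interval of this promoter peak included 0 (0.19, -0.075 to 0.45). At equal depth 26.0% (22.9 to 29.3) of cells in set 1 and 20.2% (16.9 to 23.8) in set 2 were open at it. Over the 7 other peaks, all in introns, the levels were 40.0 and 30.0 CPM (0.41, 0.20 to 0.62).

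A single intron peak of Kit, centred 7002 bp into the gene (chr5:75581310-75582526), stood out among them. It had 171 counts in set 1 and 41 in set 2, or 13.1 (11.2 to 15.2) and 4.18 (3.00 to 5.66) CPM, a log2 ratio of 1.65 (1.15 to 2.18) and a 3.14-fold difference. The interval did not overlap that of the promoter, and the ratio lay at the 98.1th percentile of other peaks. At equal depth 5.34% (3.84 to 7.2) of cells in set 1 and 2.32% (1.24 to 3.94) in set 2 were open there, and 8.56% and 3.14% without thinning. The neighbouring intron peak at 4068 bp had 92 and 66 counts, or 7.05 and 6.72 CPM (0.069, -0.40 to 0.55), and the one at 14721 bp had 90 and 54 counts, or 6.90 and 5.50 CPM (0.33, -0.18 to 0.84). The peak at 17644 bp was lower in set 1, at 4.60 and 6.82 CPM (-0.57, -1.10 to -0.045). The peaks farther into the gene, at 49226, 58695 and 62042 bp, had 73 and 42, 21 and 7, and 15 and 18 counts, and their intervals all included 0, also at 58695 bp, where the ratio passed 1.5-fold.

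The central 300 bases of the Kit peak at 7002 bp (GRCm38, chr5:75581768-75582067, plus strand, 5′ to 3′) are shown as the part of Kit that differed most between the sets. Capitals mark TGTGGT, the core of the site bound by RUNX factors.
Kit peak at 7002 bp: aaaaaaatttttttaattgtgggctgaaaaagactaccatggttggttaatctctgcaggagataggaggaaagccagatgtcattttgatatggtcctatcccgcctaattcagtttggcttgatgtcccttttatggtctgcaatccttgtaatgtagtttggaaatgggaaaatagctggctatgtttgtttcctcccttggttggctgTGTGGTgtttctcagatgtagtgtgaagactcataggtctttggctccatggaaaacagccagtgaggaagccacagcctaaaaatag
The word was found once, at base 213, and the central 300 bases of 30.1% of all other peaks hold it on either strand.

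**Figure D2:**
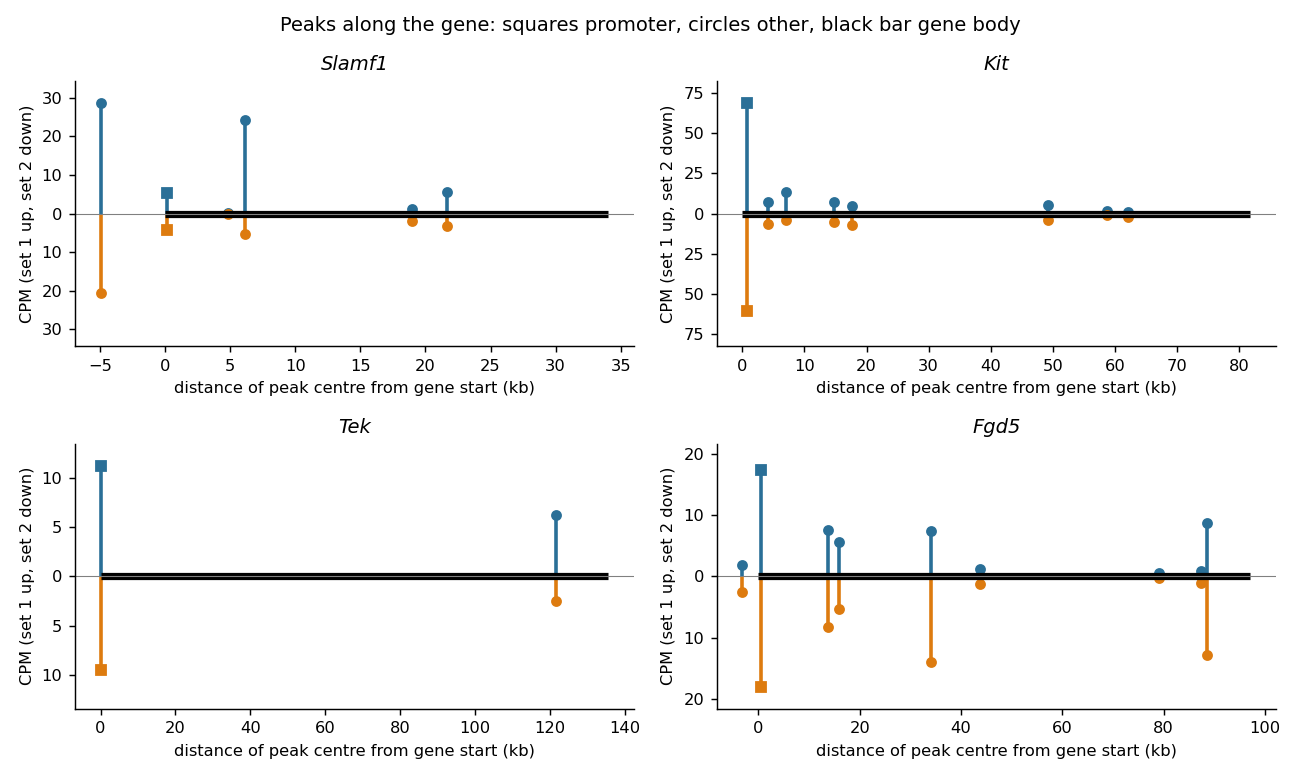
Each panel plots the CPM of every peak of a gene against the distance of its centre from the gene start in kb, upward for set 1 (blue) and downward for set 2 (orange), with squares for promoter peaks, circles for other peaks and a black bar for the gene body. The Slamf1 peak at 6163 bp (24.1 and 5.40 CPM), the Kit peak at 7002 bp and the Tek peak at 121712 bp are taller in set 1, and the Fgd5 peak at 34091 bp is taller in set 2, while the promoter of the same gene is nearly symmetric.

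Tek, the gene of the angiopoietin receptor TIE2, had 2 peaks far apart at ENSMUSG00000006386.15 (chr4:94739289-94874976, plus strand). The promoter peak (chr4:94738707-94740023) had 146 and 93 counts, or 11.2 and 9.47 CPM (0.24, -0.14 to 0.63), and 4.14% and 4.29% of thinned cells were open at it. The other peak (chr4:94860710-94861293), in an intron 121712 bp from the start, had 81 and 25 counts, or 6.21 (4.93 to 7.71) and 2.55 (1.65 to 3.76) CPM. Its log2 ratio was 1.29 (0.62 to 2.00), a 2.44-fold difference. Thinned cells were open there at a share of 2.54% (1.53 to 3.93) in set 1 and of 0.357% (0.0433 to 1.28) in set 2, which rests on 19 and 2 cells. Without thinning the shares were 4.77% and 2.04%. The log2 intervals of the promoter and the intron peak of Tek overlapped narrowly, and the difference between these peaks was not tested.

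The central 300 bases of the Tek intron peak (GRCm38, chr4:94860852-94861151, plus strand, 5′ to 3′) are given as its only peak past 1.5-fold. Capitals mark ACCACA, the reverse complement of TGTGGT, at base 47, and TTATCT, the reverse complement of AGATAA, at base 189.
Tek peak at 121712 bp: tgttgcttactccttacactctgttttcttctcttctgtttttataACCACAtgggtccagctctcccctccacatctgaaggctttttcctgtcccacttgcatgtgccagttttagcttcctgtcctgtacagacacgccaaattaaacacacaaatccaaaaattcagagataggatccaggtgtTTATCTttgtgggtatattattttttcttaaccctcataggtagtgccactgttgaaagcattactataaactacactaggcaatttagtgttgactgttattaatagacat

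Procr, the gene of EPCR, had a single peak, the promoter peak (chr2:155750882-155751883), at ENSMUSG00000027611.12 (chr2:155751117-155755471, plus strand). It had 155 counts in set 1 and 68 in set 2, or 11.9 (10.1 to 13.9) and 6.93 (5.38 to 8.78) CPM, a 1.72-fold difference. Its ratio lay at the 95.7th percentile of promoter peaks and was the only 1 of the 8 marker promoters past 1.5-fold. At equal depth 4.81% (3.39 to 6.59) of cells in set 1 and 2.86% (1.64 to 4.60) in set 2 were open, and 8.31% and 5.19% without thinning. The intervals of the thinned shares overlapped.

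The bases before the Procr start are shown because its promoter was the only 1 to differ by this measure. They are the first 150 bases of the RefSeq promoter entry (GRCm38.p6, chr2:155750967-155751116, plus strand, 5′ to 3′), which end at the start of the gene in the annotation used. Capitals mark TGACTCA, the site of AP-1 factors, at base 97.
Procr promoter: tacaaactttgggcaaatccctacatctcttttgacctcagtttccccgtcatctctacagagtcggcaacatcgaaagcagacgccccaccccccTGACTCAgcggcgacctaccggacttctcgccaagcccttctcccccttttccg
AP-1 sites, as TGACTCA or TGAGTCA on either strand, were found in 5.20% of the 32851 RefSeq promoter entries, which span 250 bases before and 50 after a start. RefSeq entries were matched for 7 of the 9 genes (8 entries), and Esam and Ly6a had none. Among the 8 entries this word was found only in that of Procr, and AGATAA only in that of Tek.

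Esam, the gene of endothelial cell-selective adhesion molecule, had 1 broad promoter peak of 5297 bp (chr9:37526419-37531715) at ENSMUSG00000001946.14 (chr9:37528078-37538319, plus strand). It had 1361 counts in set 1 and 701 in set 2, or 104.3 (98.8 to 110.0) and 71.4 (66.2 to 76.9) CPM. The log2 ratio of 0.55 (0.41 to 0.68), a 1.46-fold difference just inside the 1.5-fold limit, lay at the 92.8th percentile of promoter peaks. Counting each peak once per cell lowered it to 0.30 (0.063 to 0.55), and open cells held 3.58 counts each in set 1 against 3.06 in set 2. At equal depth 31.8% (28.4 to 35.2) and 24.3% (20.8 to 28.1) of cells were open. At Esam both the counts per open cell and the share of open cells were thus higher in set 1. The only other peak in the window, of 6 bp, had 0 counts in both sets.

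Robo4, the gene of a roundabout receptor best known from endothelium, lies 112962 bp from Esam on the same chromosome (ENSMUSG00000032125.20, chr9:37401897-37415115, plus strand) and leaned the other way. Its promoter peak (chr9:37401467-37403460) had 295 and 249 counts, or 22.6 and 25.4 CPM (-0.17, -0.41 to 0.083), and its other peak, at 4324 bp in a coding exon, had 82 and 81 counts, or 6.28 and 8.25 CPM (-0.39, -0.85 to 0.068). Both intervals included 0. The promoter of Msantd2, which lies between Robo4 and Esam, had 52.6 and 54.7 CPM (-0.055, -0.22 to 0.11). Promoter peaks of Robo3, also between these genes, had log2 ratios of -0.38 (-0.78 to 0.0085) and -0.20 (-0.41 to 0.015). The peaks of this stretch outside promoters went either way, from 1.72 (0.59 to 3.04) to -0.995 (-2.08 to 0.049). The intervals of the Esam and Robo4 promoters did not overlap, so the higher level at Esam in set 1 was not seen at the promoter of Robo4.

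Fgd5, the gene of a guanine nucleotide exchange factor for CDC42, had 9 peaks at ENSMUSG00000034037.14 (chr6:91978878-92076004, plus strand) and was the marker gene with the lowest log2 ratio. Its promoter peak (chr6:91978390-91980242) had 227 and 177 counts, or 17.4 and 18.0 CPM (-0.051, -0.34 to 0.24), and 7.48% and 6.07% of thinned cells were open at it. The 8 other peaks together had 33.6 and 45.9 CPM (-0.45, -0.64 to -0.26). Within the gene the difference lay in a pair of intron peaks. The first, at 34091 bp (chr6:92012423-92013515), which also overlaps the noncoding gene 4930466I24Rik, had 97 and 138 counts, or 7.43 (6.03 to 9.07) and 14.1 (11.8 to 16.6) CPM, a log2 ratio of -0.92 (-1.31 to -0.53). It was 1.89-fold higher in set 2, and 2.67% (1.64 to 4.09) and 5.18% (3.50 to 7.35) of thinned cells were open. In thinned cells the interval of its log2 ratio included 0 (-0.70, -1.43 to 0.0070), and once per cell it did not (-1.425 to -0.235). The second, at 88539 bp (chr6:92067064-92067770), had 113 and 126 counts, or 8.66 and 12.8 CPM (-0.57, -0.95 to -0.19), a 1.48-fold difference that did not pass 1.5-fold. There 2.94% and 5.54% of thinned cells were open.

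The 2 intron peaks of Fgd5 nearest its start had intervals that included 0. They had 98 and 82 counts (7.51 and 8.35 CPM) at 13720 bp and 73 and 53 counts (5.59 and 5.40 CPM) at 15833 bp. The other 4 peaks of the gene held between 3 and 26 counts per set. The central 300 bases of the Fgd5 peak at 34091 bp (GRCm38, chr6:92012819-92013118, plus strand, 5′ to 3′) are shown as the only marker peak past 1.5-fold in the direction of set 2. Capitals mark TGTGGT at base 48 and CATTCC, the core of the TEAD site, at base 268.
Fgd5 peak at 34091 bp: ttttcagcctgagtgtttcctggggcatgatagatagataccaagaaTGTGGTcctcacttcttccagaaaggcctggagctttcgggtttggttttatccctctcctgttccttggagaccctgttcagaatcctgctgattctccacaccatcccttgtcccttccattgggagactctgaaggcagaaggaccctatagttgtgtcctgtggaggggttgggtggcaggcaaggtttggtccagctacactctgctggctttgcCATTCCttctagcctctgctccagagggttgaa
The central 300 bases of 14.8% of all other peaks hold CATTCC on either strand.

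Ctnnal1, the gene of alpha-catulin, had 1 strong promoter peak (chr4:56863562-56866609) at ENSMUSG00000038816.14 (chr4:56810935-56865188, minus strand). It had 1013 and 687 counts, or 77.6 and 70.0 CPM, with a log2 ratio of 0.15 (0.0087 to 0.29). Counted once per cell, the interval of this promoter peak included 0 (0.14, -0.11 to 0.39). At equal depth 25.8% (22.7 to 29.1) and 25% (21.5 to 28.8) of cells were open, with 3.08 and 3.10 counts per open cell. Its other peak, of 39 bp, held 2 and 0 counts. The thinned shares of open cells differed by 1.03-fold, and without thinning they were 40.2% and 34.9%.

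Ly6a, the gene of Sca-1, which was also used to sort the cells (ENSMUSG00000075602.10, chr15:74994877-74998031, minus strand), had no peak in its body or the 5000 bp upstream. The table holds counts in called peaks only, so this gives no level for Ly6a. No peak was found at 21.7% of 21951 protein-coding loci, and Ly6c1, a relative of Ly6a in the same cluster, had none either, whereas Ly6e had 1 and Ly6i had 2. The nearest peak to the window of Ly6a (chr15:74992664-74993144) lay 1733 bp from its edge, on the downstream side, and had 70 and 43 counts, or 5.36 and 4.38 CPM (0.29, -0.28 to 0.88). The next (chr15:74988161-74989961), 4916 bp from the edge, had 451 and 405 counts, or 34.6 and 41.2 CPM (-0.26, -0.45 to -0.058).

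**Figure D3:**
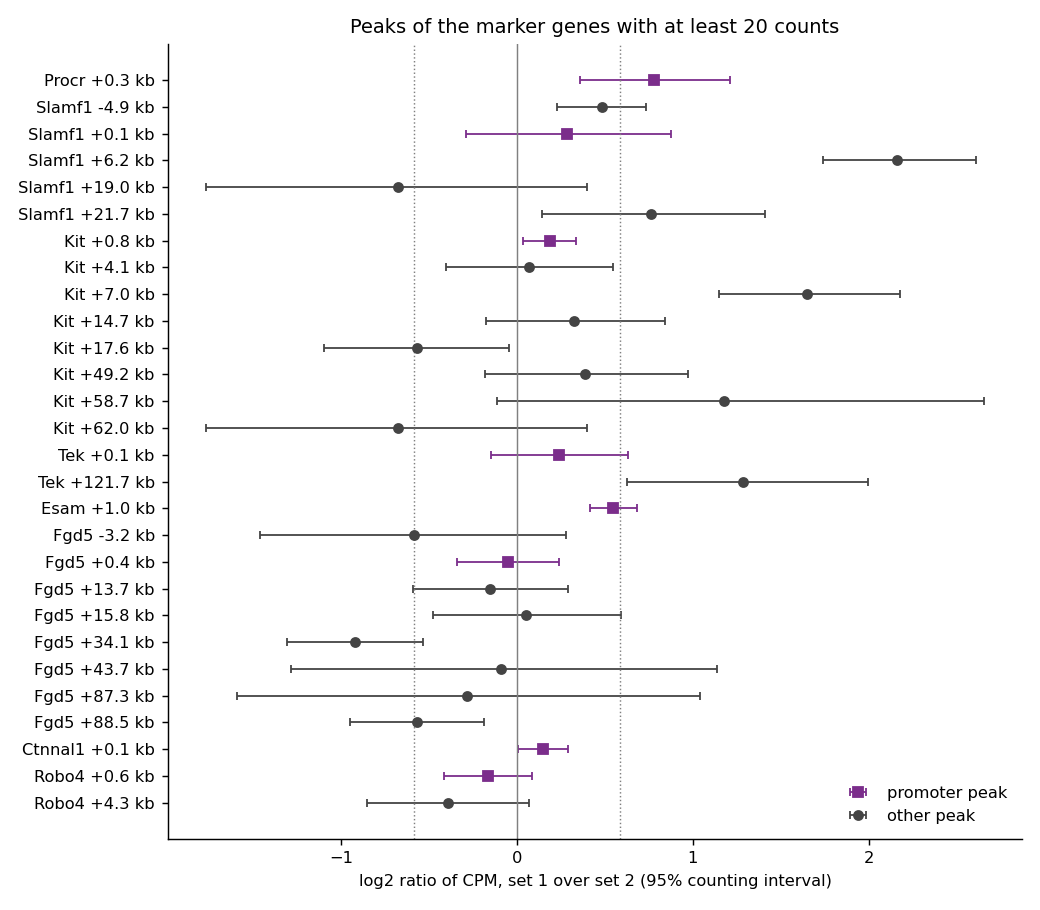
The plot gives the log2 ratio of CPM, set 1 over set 2, with its 95% counting interval for the 28 marker peaks with at least 20 counts, named by gene and distance of the centre from the gene start, with purple squares for promoter peaks, grey circles for other peaks and dotted lines at 1.5-fold without the added 1 CPM. The Slamf1 peak at 6163 bp (2.16), the Kit peak at 7002 bp (1.65) and the Tek peak at 121712 bp (1.29) lie farthest to the right with intervals clear of 0, and the Fgd5 peak at 34091 bp (-0.92) farthest to the left.

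Shares of open cells per locus gave the same order of the sets at every gene as the counts, but with wider intervals. At equal depth the Slamf1 locus was open in 19.1% (16.3 to 22.1) of cells in set 1 and 12.3% (9.72 to 15.3) in set 2, the Kit locus in 36.6% (33.1 to 40.2) and 26.8% (23.2 to 30.7), and the Esam locus in 31.8% and 24.3%. For these 3 loci the intervals did not overlap. For Procr, Tek (6.54% and 4.46%), Fgd5 (17.4% and 21.1%), Ctnnal1 and Robo4 (9.75% and 12.5%) the intervals overlapped. Without thinning the shares were 34.1% and 20.1% at Slamf1, 48.9% and 41.8% at Kit, 13.1% and 8.02% at Tek, 46.5% and 36.0% at Esam, 31.9% and 34.1% at Fgd5, and 17.2% and 20.6% at Robo4. Most cells therefore had no count at any given marker locus at this depth, which is a limit of detection and not evidence of closed chromatin.

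Across the marker genes, a thinned cell of set 1 was open at 1.52 ± 1.12 (SD over 749 cells) loci and one of set 2 at 1.29 ± 1.04 (SD over 560 cells). No marker locus was open in 19.6% (16.8 to 22.7) of cells in set 1 and 23.6% (20.1 to 27.3) in set 2, and these intervals overlapped. The highest number of open loci in a cell was 5 in set 1 and 6 in set 2. For promoter peaks alone the means were 1.10 and 0.954 per cell, and for other peaks 0.523 and 0.409.

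**Figure D4:**
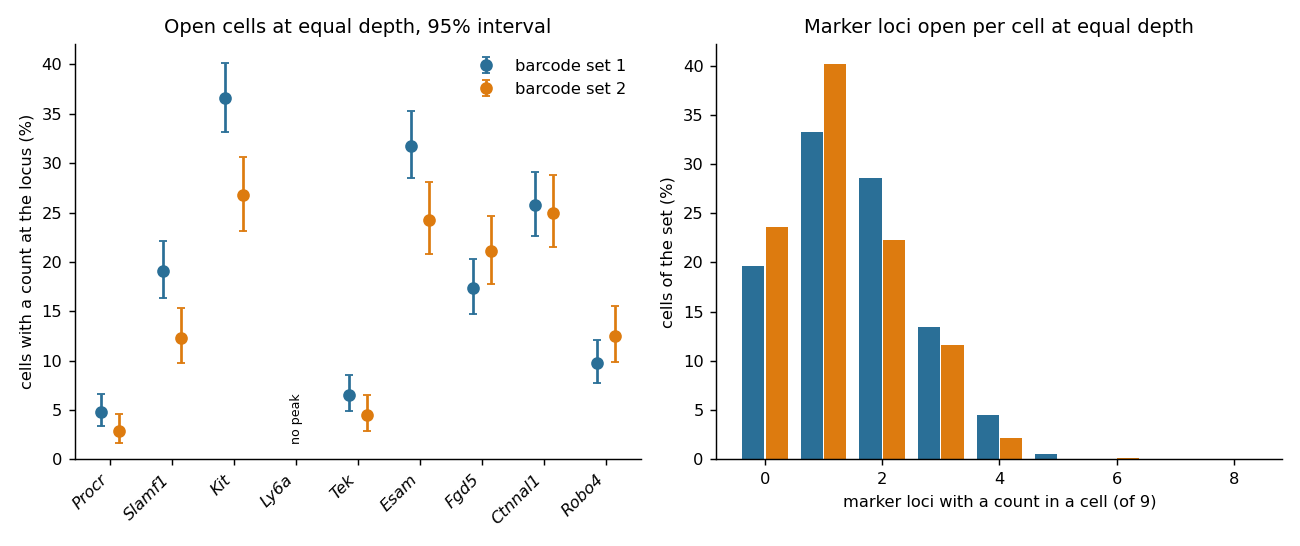
The left panel plots the percent of thinned cells with a count at each marker locus in set 1 (blue) and set 2 (orange) with 95% Clopper-Pearson intervals, and Ly6a has no peak. The right panel plots the percent of cells of each set by the number of marker loci with a count, where 19.6% of cells in set 1 and 23.6% in set 2 have none and most cells have 1 or 2.

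The peaks past 1.5-fold shared no single sequence word. Over all marker peaks AGATAA was found in 5 of the 24 other peaks and 2 of the 8 promoter peaks, against 14.5% and 5.49% of all peaks of these classes, and TGTGGT in 10 of 24 and 1 of 8, against 30.1% and 13.9%. The PU.1 word GAGGAAGT was found in 3 of 24 and 0 of 8, against 7.5% and 2.97%, and CATTCC in 3 of 24 and 0 of 8, against 14.8% and 11.0%. CCGGAAGT, for other ETS factors, was found in none of the 32 peaks, against 0.610% and 3.58%, and an AP-1 word in 1 of 24 and 1 of 8, against 9.60% and 3.63%. All words were searched on both strands of the central 300 bases, which for a short peak reach past its ends. Among the 7 peaks past 1.5-fold, AGATAA was present in both Slamf1 intron peaks, the Tek peak and the Kit peak at 58695 bp, TGTGGT in the Kit peak at 7002 bp, the Tek peak and the Fgd5 peak, and no word in the centre of the Procr peak.

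Other genes known for stem cell identity were taken as a list of 20, all with peaks. Of these, 3 were at least 1.5-fold higher in set 1 and 0 in set 2, against 4.62% and 3.6% of all protein-coding loci, with a median log2 ratio of 0.11. Among them were Cavin2, a caveolar protein gene (106.4 and 31.5 CPM, 1.76, 1.58 to 1.94), and Pdzk1ip1 (68.7 and 43.1 CPM, 0.67, 0.50 to 0.84). Genes of the list that lay near 0 included Alcam (0.00060, -0.10 to 0.10), Cd81 (0.023, -0.074 to 0.12) and Hoxa9 (-0.045, -0.17 to 0.086), whereas Meis1 (-0.14, -0.21 to -0.073) and Thy1 (-0.32, -0.59 to -0.049) were lower in set 1.

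Genes of multipotent progenitors were listed for comparison, 9 in all, of which 6 had enough counts. None of the 6 was 1.5-fold higher in set 1 and 3 were higher in set 2, against 4.62% and 3.6% of all protein-coding loci, with a median log2 ratio of -0.57. The 3 were Cd34 (20.2 and 39.4 CPM), whose protein the sort selected against, Flt3, the gene of CD135 that the sort also selected against (76.1 and 144.3 CPM), and Cd244a (27.1 and 47.1 CPM, -0.79, -1.0 to -0.59). Cd48 (-0.34, -0.63 to -0.045) and Cd27 (-0.24, -0.44 to -0.042) were lower in set 1 by less than 1.5-fold.

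Loci of other cell types were read as a check of the sort. Of the 8 endothelial genes, 0 were past 1.5-fold in either direction, and their summed level was 319.2 CPM in set 1 and 293.5 in set 2, led by Flt1 (130.9 and 121.0 CPM) and with Emcn at 9.58 and 8.66 CPM. This bears on Tek, Esam and Robo4, which endothelium also uses, and the part of the endothelial loci in their values was not tested. Of the 5 T cell genes, 3 had no peak (Cd3e, Cd3g and Cd8a), Cd3d had 29.7 and 39.3 CPM, and Cd4 had 5 and 2 counts, for a sum of 30.1 and 39.5 CPM. Of the 4 B cell genes Ms4a1 had no peak and Cd79a had 0 and 5 counts, and the sum of 68.0 and 72.6 CPM was mostly Pax5. Of the 6 granulocyte and monocyte genes 0 of 5 measured were past 1.5-fold, with 118.0 and 132.9 CPM in all and no peak at Ly6g. Of the 5 erythroid genes Epor was higher in set 1 (32.6 and 21.4 CPM) and Hbb-bt in set 2 (4.37 and 7.54 CPM), with a sum of 88.0 and 72.3 CPM and no peak at Hbb-bs. Mast cell and basophil genes, 4 in all, had 8.58 and 7.33 CPM, all of it at Cpa3, and the other 3 had no peak.

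Marker ratios were also read within 3 equal bins of cells by depth, since counts per cell ranged from 224 to 136173. In the bin with the most counts (264 and 221 cells), every marker locus had the direction it had in all cells. In the lowest bin (269 and 216 cells) the direction turned at Ctnnal1 (-0.13, -0.50 to 0.25) and Robo4 (0.59, -0.065 to 1.27), the loci at the edge of counting error. The Robo4 promoter peak, lower in set 1 in all cells, was higher in set 1 in that bin (0.95, 0.18 to 1.77). The Slamf1 peak at 6163 bp was higher in set 1 in the lowest (1.29, 0.12 to 2.64), the middle (3.21, 2.02 to 4.69) and the highest bin (2.07, 1.58 to 2.61).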

How the data were processed

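Single-cell ATAC-seq was analysed as the authors deposited it, as a table of raw counts of transposase cuts per peak and cell barcode. Per the labels, the reads were processed with Cell Ranger ATAC 1.2.0 on mm10 (GRCm38). No normalization of the deposited counts is stated, and any equalisation of depth is not given in the sources used here. A second table, without peak names, was not used here. Gene bodies were taken from GENCODE M21, starts of peaks were taken as 0-based, and all 93513 peaks lay within the chromosomes of the reference. The genes and lists were chosen with earlier results of these data known.

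Counts were summed per barcode set and divided by the set total to give CPM. Log2 ratios carry conditional binomial intervals, shares carry Clopper-Pearson intervals and CPM carry Poisson intervals, all at 95% and for counting error only. A peak at least 1.5-fold apart, with a pseudocount of 1 CPM and at least 20 counts, was counted as past the fold. For shares, each cell was randomly reduced to 4899 counts, the 10th percentile, and 69 cells of set 1 and 76 of set 2 with fewer counts were left out. No cell was removed from the sums and no doublet caller was run, and 57 cells had over 3 times the median counts. Values of some genes of the comparison lists are not reported here. The functions were tested on simulated data. Peaks were named if they were promoter peaks, the other peak with most counts of a gene, or had at least 100 counts and 1.5-fold between the sets, and a few others were named after their values were seen. Each group has 1 sample and no label names the sets, so no test was made. Alternatives changed the counting, scaling, windows, minimum count, pseudocount and depth. Python 3.11.15, NumPy 2.4.6, SciPy 1.17.1 and pysam 0.24.0 were used.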

Additional observations from a re-analysis of the deposited data

How the results depend on the processing

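No paired analysis was possible because each group has 1 sample and no barcode set is tied to a sample, and for the same reason no replicate could be left out. Of the 80 alternative values of the locus log2 ratios, 69 stayed within the counting interval of the reported value, 9 left it and 2 changed sign. The Slamf1 locus moved to 1.29 with a window of 2000 bp and also with the gene body alone, and the Esam locus moved to 0.30 with peaks counted once per cell. The 3 equal bins of cells by depth, chosen after seeing the data, gave 1.29 at Procr, 0.69 at Slamf1, 0.36 at Esam, -0.13 at Ctnnal1 and 0.59 at Robo4 in the lowest bin, and 1.17 at Slamf1, 0.70 at Esam and -0.61 at Robo4 in the middle bin. The lowest bin also changed the sign at the promoters of Robo4 (0.95, 0.18 to 1.77), Tek (-0.65, -1.80 to 0.48), Kit (-0.082) and Ctnnal1 (-0.13), and the cause was not tested. With peaks counted once per cell, the interval of the Procr locus came to include 0 (0.62). For the other peaks past 1.5-fold with at least 100 counts, 39 alternative log2 ratios were computed. Of these, 31 stayed within the interval of the reported value, 8 left it and 0 changed sign. The 39 leave out the Kit peak at 7002 bp in the lowest bin, where a set had no counts and no finite ratio could be formed. Thinning brought 0 into the intervals of the Fgd5 peak at 34091 bp (-0.70) and the Slamf1 peak at 21694 bp (0.66). It did the same at the Tek (0.38), Fgd5 (-0.27), Ctnnal1 (0.077) and Robo4 (-0.39) loci. The count of marker peaks past the fold was 6 in set 1 and 1 in set 2. It was 2 in set 1 with a pseudocount of 5 CPM and 3 in set 2 with 0.2 CPM, 2 in set 2 with each peak counted once per cell, and 3 and 0 with a fold of 2, which by its construction passes fewer peaks. Median-of-ratios scaling shifted all log2 ratios by -0.0086. All 32 alternative shares of open cells left their interval without thinning and with cells kept at 8162 counts, all of them upward. The log2 intervals of the marker peaks with under 100 counts in all reached farther than 1.5-fold to either side of their value, and shares of a few percent rest on fewer than 60 cells.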
